A study of Mus musculus with 11 samples.

Results

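The T cell receptor alpha and delta genes (Tcra and Tcrd) share a single locus on mouse chromosome 14, and Dad1, which encodes a subunit of the oligosaccharyltransferase complex, is its neighbour. The locus was taken as every called peak that overlapped chr14:52900000-54950000 of the mouse build mm9, a window of 2050001 bp. It held 234 of the 120616 peaks in the 6 lists analysed. Of these, 38 and 44 were H3K27ac peaks of Rad21 -/- (KO) replicates 1 and 2, and 44 and 37 were H3K27ac peaks of wild-type (WT) replicates 1 and 2. A further 42 and 29 were Smc1a peaks of WT replicates 1 and 2. The window was selected on these same H3K27ac calls, because both KO lists and neither WT list held peaks over a stretch at chr14:54782908-54861130. Values that concern the stretch are therefore descriptions and carry no test.

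All libraries came from CD4+ CD8+ double positive thymocytes that had been sorted from mice aged 6 weeks. In KO mice a floxed Rad21 allele was removed by a Cre transgene under Cd4 control that acts from about the double positive stage. Control animals were littermates, and the labels do not say whether they carried Cre. H3K27ac, the acetylation of histone H3 at lysine 27 that is found at active promoters and enhancers, was profiled by chromatin immunoprecipitation and sequencing (ChIP-seq) in 2 KO and 2 WT libraries. Smc1a, a subunit of the cohesin ring, was profiled in 2 WT libraries and in no KO library. Nothing in the labels ties the replicates of a group to different mice, so p-values measure the spread between libraries, which may be technical. Neither the Rad21 deletion nor the sorted cell type was checked, since no mm9 annotation placed Rad21, Cd4 or Cd8a on the peaks.

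A Tcra gene is assembled by V-J recombination, in which the RAG recombinase joins a variable (V) segment to a joining (J) segment and the DNA between them is usually deleted. The first joins in double positive cells use V segments and J segments that lie near each other, and later joins reach farther out on both sides. Acetylation over the J-alpha array depends on an enhancer that lies beyond the alpha constant region, and cohesin is known to be needed in these cells for efficient Tcra rearrangement. Since Tcrd lies between the V and J segments of Tcra, a V-alpha to J-alpha join removes it from that chromosome.

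The RefSeq gene table of assembly GRCm38.p6 gives the order of the locus. It lists 130 Trav segments, 16 of them pseudogenes. They are followed by most Trdv segments, 2 Trdd and 2 Trdj segments, the delta constant gene Trdc, the inverted delta segment Trdv5, 60 Traj segments (9 of them pseudogenes), the alpha constant gene Trac, Dad1 and then Abhd4. Of the Trav segments, 40 carry a d and 34 an n in their name, which mark copies of a duplicated block. The peaks are on another build, so they were matched to this order only as a whole and not to single segments. In this order the V segments come first, and the J-alpha array, Trac, the alpha enhancer and Dad1 come last, toward the high end of the window, where the KO stretch was called.

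Acetylated regions were sparse in the low part of the window and dense in the high part. Overlapping or touching H3K27ac peaks of the 4 libraries formed 47 regions, numbered here from 1 to 47 along the chromosome. Of these, 30 (63.8%) were called in all 4 libraries, against 49.6% of the 24430 regions of the whole series. The 30 shared regions had a median length of 2790 bp, against 2922 bp for the shared regions of the series. A region called in both KO and neither WT library occurred 2 times among the 47, and 2.82% of all regions of the series were of this class. The reverse pattern occurred 3 times, and 2.33% of all regions were of that class. The other 12 regions were called in another mix of libraries.

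**Figure D1:**
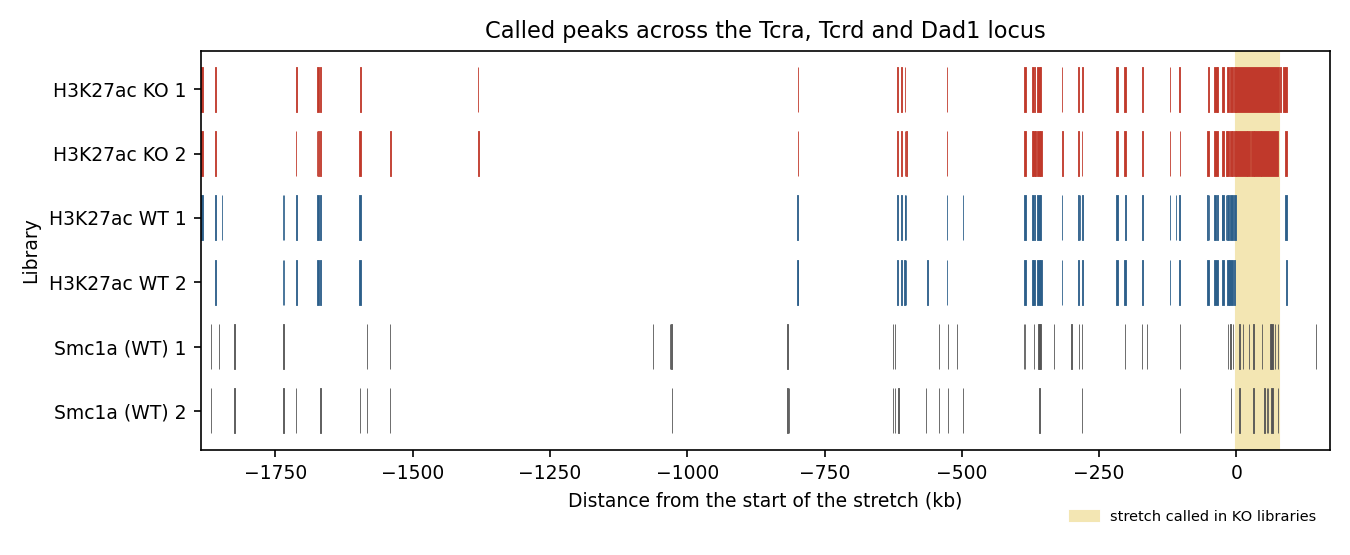
Called peaks of the 6 libraries across the locus, drawn by their distance in kb from the start of the KO stretch (shaded), with 1 row per library. H3K27ac rows of KO and WT libraries matched at most positions before the stretch, and the 78223 bp stretch was filled in both KO rows and empty in both WT rows.

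The KO stretch was by far the longest of its class. It spanned 78223 bp, while the longest of the other 689 regions called in KO alone was 6189 bp and their median was 1590 bp. Of all 24430 acetylated regions, 1 was longer (82221 bp). Among the 106 regions of at least 20000 bp, 100 were called in all 4 libraries, 5 in a mixture, none in WT alone, and the stretch was the single one called in KO alone. These lengths are part of what drew attention to the locus and are given without a test.

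The KO libraries covered the stretch in different ways. In KO replicate 1 it was 1 peak of 78214 bp, the longest peak of its list. In KO replicate 2 it was 5 peaks of 19341, 5707, 5563, 13714 and 31331 bp, which together covered 75656 bp (96.7% of the stretch). The intervals between these 5 peaks were 89, 552, 171 and 91 bp long, so the calls of KO replicate 2 were almost continuous. The interval of 171 bp, at chr14:54814160-54814330, was the one that overlapped an Smc1a site called in both replicates. Covered length was 0 bp in both WT libraries.

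**Figure D2:**
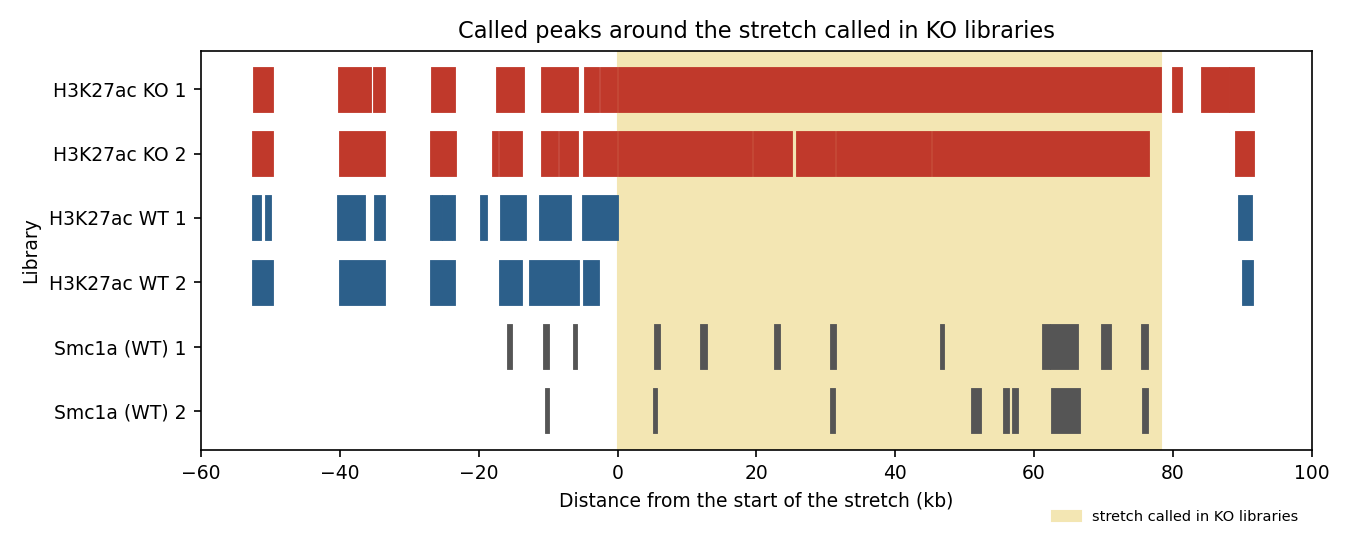
Called peaks from 60 kb before to 100 kb after the start of the KO stretch (shaded), by distance in kb, with 1 row per library. H3K27ac calls ended 6 bp before the stretch in WT replicate 1 and 2707 bp before it in WT replicate 2 and resumed after it, and the Smc1a rows, which are from WT cells, held 9 and 7 peaks inside it.

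The authors' peak scores differed widely between the KO libraries over the stretch. These scores are the peak caller's own values and serve here to rank peaks within a list. The single peak of KO replicate 1 scored 61.86, which placed it 18149th of 19503 peaks, close to the lowest score of that list (50.01). The 5 peaks of KO replicate 2 scored 1281.33, 818.69, 656.98, 1317.91 and 3100. Many peaks of that list shared the score of 3100. All of them take rank 80 of 20244, the best rank of the tie, and with ties averaged they lie at percentile 96.5. The call in KO replicate 2 was thus high in its list at the high end of the stretch, and the call in KO replicate 1 among the weakest of its own.

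No other peak of at least 20000 bp scored as low in any of the 4 lists. KO replicate 1 held 39 peaks of at least 20000 bp, and the lowest score among the others was 546.29. KO replicate 2 held 24 such peaks with a lowest score of 760.02, WT replicate 1 held 54 with a lowest score of 420.73, and WT replicate 2 held 63 with a lowest score of 115.28. The median score of these wide peaks was 3100 in each of the 4 lists. Scores under 500 were held by 6 of them in WT replicate 2, 2 in WT replicate 1 and 0 in KO replicate 2. In KO replicate 1 the peak of the stretch alone scored under 500. Wide calls as such were present in the WT lists. The longest peak was 79995 bp in WT replicate 1 (score 1934.52) and 62472 bp in WT replicate 2 (score 235.09). With the upper 75% of each list by score, the peak of KO replicate 1 was no longer held, its covered length in the stretch was 0 bp, and no region of the stretch was called in both KO libraries. The agreement of both KO libraries over the stretch thus rested on a single peak of low score. KO replicate 2 still covered 75656 bp of the stretch at this threshold.

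**Figure D3:**
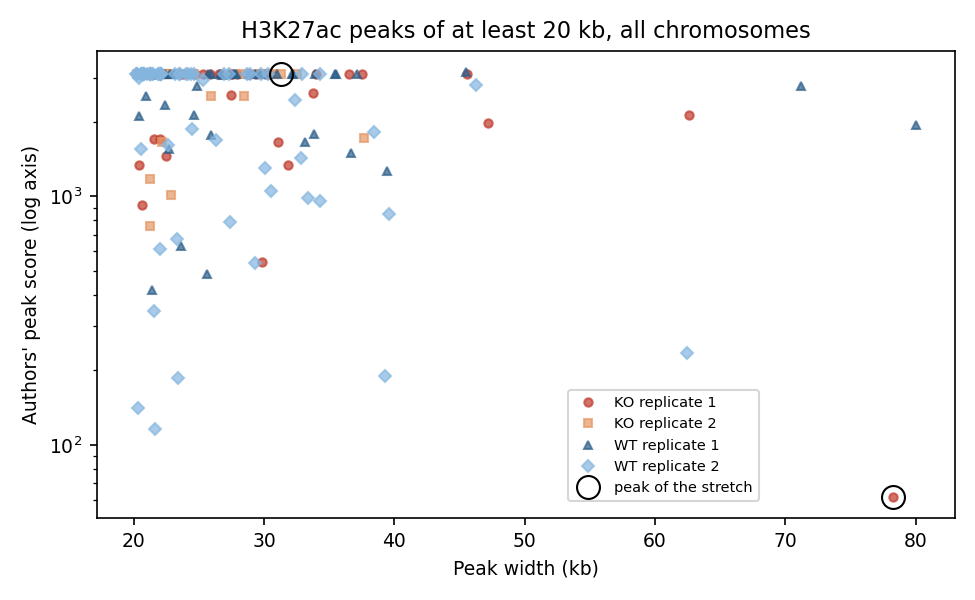
Width in kb (horizontal axis) and authors' score (vertical log axis) of every H3K27ac peak of at least 20 kb on all chromosomes, with a symbol per library and open circles around peaks of the KO stretch. The 78214 bp peak of KO replicate 1 had the lowest score shown (61.86), and the 31331 bp peak of KO replicate 2 lay at 3100 with many others.

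The edges of the stretch were close to calls of every library on the low side. Region 43, directly before it, was called in all 4 libraries, with 4749 and 4925 bp covered in KO replicates 1 and 2 and 5085 and 2271 bp in WT replicates 1 and 2. The nearest peak ended 67 and 56 bp before the stretch in the KO libraries, and 6 and 2707 bp before it in the WT libraries. Calls of WT replicate 1 therefore reached almost to the first base of the stretch, and those of WT replicate 2 stopped shortly before it. In the WT lists the interval between the flanking peaks was 89370 and 92617 bp long.

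Beyond the stretch the KO replicates parted. KO replicate 1 had 2 further peaks at chr14:54862803-54864144 (score 62.68) and chr14:54866917-54870969 (score 247.78), which no other library held. Region 47, at chr14:54871037-54874601, was called in all 4 libraries and was the last acetylated region of the window. It was covered over 3510 and 2707 bp in KO replicates 1 and 2, and over 2095 and 1632 bp in WT replicates 1 and 2, so both KO values lay above both WT values. Its scores were 444.95 and 384.39 in the KO lists, and 325.61 and 64.6 in the WT lists. No H3K27ac peak of any library lay in the 75399 bp from there to the end of the window.

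Dad1 is the protein-coding gene among the members and is active in most cell types. Its promoter is shown because Dad1 is the gene next to the alpha enhancer, in the part of the locus that holds the stretch. The RefSeq sequence of this promoter (GRCm38.p6, chr14:54253880-54254179, minus strand, 5′ to 3′) is 300 bases long with 57.3% G and C, and capitals mark matches to CCAAT on either strand.
Dad1 promoter: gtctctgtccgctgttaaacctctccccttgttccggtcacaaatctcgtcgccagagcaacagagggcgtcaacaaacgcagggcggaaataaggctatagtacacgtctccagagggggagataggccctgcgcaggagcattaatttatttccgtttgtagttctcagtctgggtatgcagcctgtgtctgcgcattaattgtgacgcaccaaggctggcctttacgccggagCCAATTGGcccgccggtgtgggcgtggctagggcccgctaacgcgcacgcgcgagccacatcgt
The 2 CCAAT matches lie on opposite strands and overlap, at bases 237 to 241 and 240 to 244 counted from the 5′ end. CCAAT on either strand occurs in 37.4% of the 32851 promoter sequences of the table. GGGCGG occurs 1 time here and in 35.7% of all promoters on either strand. The promoter listed for the neighbour Abhd4, a lipase gene read in the opposite direction, is the reverse complement of 299 of these 300 bases. The sequence is from another build than the peaks, and it was not placed on region 47 or on any other region.

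Smc1a in WT cells was dense in the stretch that lacked WT acetylation calls. The stretch held 9 peaks of Smc1a replicate 1 and 7 of replicate 2, which merged into 12 sites, 4 of them called in both replicates. That is 15.3 sites per 100 kb, against 2.03 per 100 kb in the rest of the window. For sites of both replicates the values were 5.11 and 0.761 per 100 kb. The Smc1a libraries, made from WT cells, thus gave calls over the stretch. Smc1a was not mapped in KO cells.

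Both strong Smc1a sites of the window lay near the high end of the stretch. The site at chr14:54858285-54859323 had the highest score of replicate 1 (3163.02, rank 1 of 25484) and scored 1709.78 in replicate 2 (rank 17 of 17726). The site at chr14:54845267-54849464 scored 2687.44 in replicate 1 (rank 4) and 2316.07 in replicate 2 (rank 3), and with 4198 bp it was the longest Smc1a site of the window. The sites lay 8820 bp apart, and both lay within the H3K27ac peak of KO replicate 2 that scored 3100, at chr14:54828136-54859466.

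The other sites of the stretch were weaker. Those of both replicates were at chr14:54787996-54788970, with scores of 128.08 and 53.21, and at chr14:54813502-54814366, with scores of 60.35 and 58.68. Sites called in 1 replicate alone scored between 52.05 and 314.67. The higher end of this range was the site at chr14:54794745-54795772, which replicate 2 did not hold.

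Over the whole window, 19 Smc1a sites were called in both replicates. Of these, 5 lay in an acetylated region that both WT libraries held (26.3%), against 22.2% of the 14848 such sites of the series. A further 4 lay in the KO stretch, while 0.310% of the sites of the series lay in a region called in KO alone. No H3K27ac call of any library touched another 9 of the 19, against 72.5% of the sites of the series. After the sites of the stretch, the highest score of replicate 1 was at chr14:54423673-54424532 (770.2, and 229.75 in replicate 2). This site lay in region 25, one of the longer shared regions. Next came a site in the low part of the window at chr14:52958146-52958915 (467.04 and 164.37) and a site at chr14:54772140-54773008 (402.35 and 113.77). The last of these lay in region 42, the second region before the stretch.

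Outside the stretch, neither the covered length nor the number of peaks separated the genotypes in the full lists. H3K27ac peaks covered 88208 and 82530 bp in KO replicates 1 and 2, and 85286 and 81414 bp in WT replicates 1 and 2. The means were 85369 ± 4015 bp in KO and 83350 ± 2738 bp in WT libraries (SD, n = 2 each), and the values of the genotypes overlapped. The KO minus WT difference was 2019 bp (two-sided exact permutation test over the 4 libraries, p = 0.667). The number of peaks was 37 and 39 in KO libraries and 44 and 37 in WT libraries, a KO minus WT difference of -2.5 (two-sided exact permutation test, p = 1). Adjusted over these 2 tests, both p-values were 1, and 2 libraries against 2 cannot give a p below 0.333. Without KO replicate 1 the difference in covered length was -820 bp, and without WT replicate 2 it was 83 bp. With the upper 75% of each list by score it was 5105 bp, with both KO libraries above both WT libraries (exact permutation p = 0.333, the smallest possible). The difference in the number of peaks was 1 without WT replicate 1, and 2 with the upper 75% of each list. Scaled to the list totals it was -5.20, with both KO libraries below both WT libraries (exact permutation p = 0.333).

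**Figure D4:**
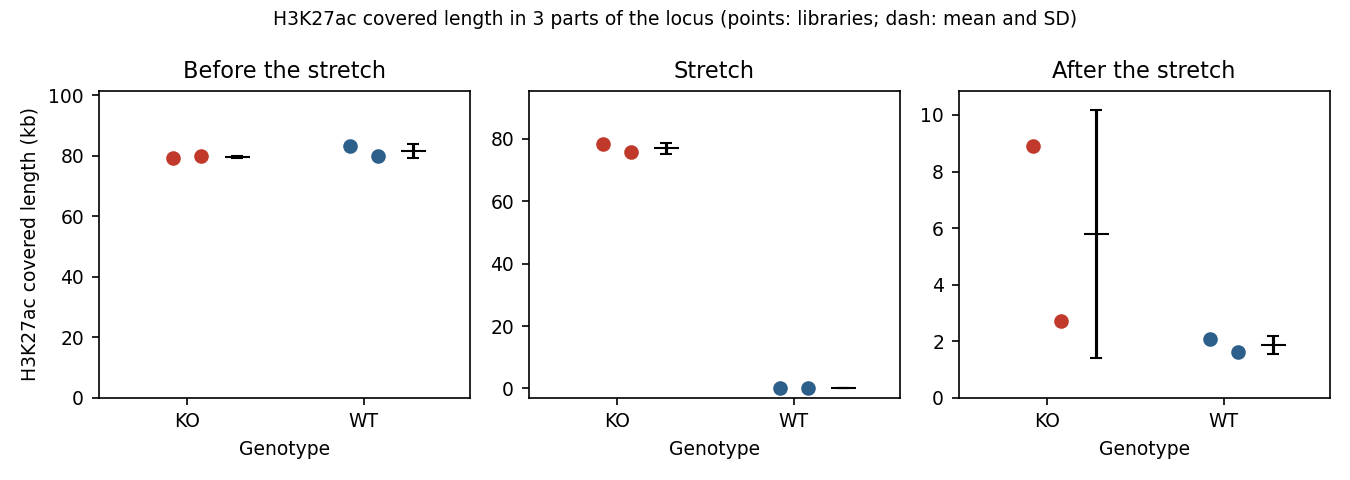
H3K27ac covered length in kb of each library before, in and after the KO stretch, with points for libraries and a dash with a bar for the mean and SD of 2 libraries. Before the stretch, KO libraries covered 79303 and 79823 bp and WT libraries 83191 and 79782 bp, while in the stretch KO libraries covered 78214 and 75656 bp and WT libraries 0 bp; the vertical axes differ between panels.

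In KO libraries the stretch held nearly as much acetylated length as the rest of the locus together. Over the whole window KO libraries covered 166422 and 158186 bp, and WT libraries 85286 and 81414 bp, a mean difference of 78954 bp. Of this, 76935 bp lay in the stretch and 2019 bp outside it. The length outside joined parts of opposite sign. Before the stretch the KO mean was lower (79303 and 79823 bp, against 83191 and 79782 bp in WT). After the stretch it was higher (8905 and 2707 bp, against 2095 and 1632 bp in WT). There, regions 45 and 46, of 1342 and 4053 bp, were called in KO replicate 1 alone. The window accounted for 0.316% and 0.332% of all covered length in the KO lists, and for 0.152% and 0.179% in the WT lists. Without the stretch these shares were 0.168% and 0.173% in KO, against the same 0.152% and 0.179% in WT libraries, and they overlapped.

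Acetylation before the stretch was also split by distance from it, with distance classes set after the calls had been seen. Within 100 kb, KO libraries covered 26990 and 27608 bp and WT libraries 25727 and 26171 bp. Between 100 and 500 kb, KO libraries covered 30320 and 30472 bp and WT libraries 31875 and 31523 bp. Between 500 and 1000 kb the values were 7819 and 8409 bp in KO, against 8841 and 8497 bp in WT libraries. Both KO libraries were thus above both WT libraries next to the stretch, and below them in the next pair of classes. With 2 libraries against 2, an exact permutation test cannot go below p = 0.333 for any of these classes. Beyond 1000 kb, where KO libraries covered 14174 and 13334 bp and WT libraries 16748 and 13591 bp, WT replicate 2 lay between the KO libraries.

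Within 100 kb before the stretch lay 7 regions, 6 of them called in all 4 libraries. Region 38, at chr14:54742524-54749448, was covered over 6523 and 6734 bp in KO libraries and 5582 and 6738 bp in WT libraries. Region 42, at chr14:54770067-54777292, was covered over 5335 and 5066 bp in KO libraries and 4536 and 7226 bp in WT libraries. In both, the WT libraries lay on either side of the KO libraries. Region 41, at chr14:54764852-54769731, was covered over 3997 and 4100 bp in KO libraries and 3804 and 3325 bp in WT libraries, so the genotypes did not overlap there. Region 40, at chr14:54763091-54764085, was called in WT replicate 1 alone, with a score of 59.57.

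Farther from the stretch, calls of high score were found at places that all libraries shared. Region 31, at chr14:54564206-54567466, scored 2616.9 and 3100 in the KO lists and 2255.76 and 2879.04 in the WT lists. It was covered over 3255 and 3179 bp in KO libraries and 3210 and 3241 bp in WT libraries. Region 25, at chr14:54419754-54424604, was covered over 4787 and 4834 bp in KO libraries and 4718 and 4459 bp in WT libraries. In the low part of the window, region 8 at chr14:53113441-53116562 scored 1611.03 and 1864.98 in the KO lists and 2880.9 and 1083.4 in the WT lists. Region 7 next to it, at chr14:53107970-53112961, was longer and scored lower in every list, and was covered over 4443 and 3409 bp in KO libraries and 4985 and 4330 bp in WT libraries.

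Among the 30 shared regions, the length called in the genotypes overlapped in 19. Both KO libraries were longer than both WT libraries in 5 (regions 19, 22, 25, 41 and 47), and 17.4% of the 12129 shared regions of the series were of this kind. Both WT libraries were longer in 6 (regions 2, 9, 15, 21, 28 and 30), and 22.9% of those of the series were of this kind. These counts lie near the shares of the series. The median KO minus WT difference was -12.5 bp here and -41.5 bp over the series. The widest separation of this kind was at region 47, described above, and region 30 stood out in the other direction, with 880 and 1091 bp in KO libraries and 1528 and 1729 bp in WT libraries.

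**Figure D5:**
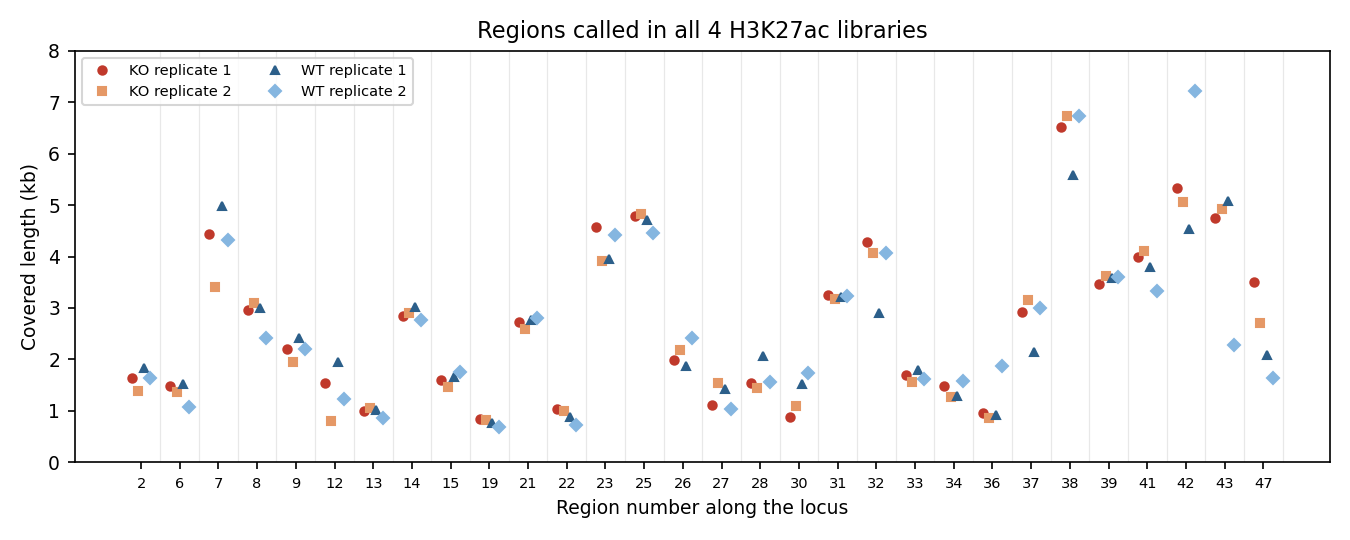
Covered length in kb of the 30 regions called in all 4 H3K27ac libraries, in their order along the locus, with a symbol per library. Points of KO and WT libraries were mixed in 19 regions, and region 47, the last one, showed 3510 and 2707 bp in KO libraries above 2095 and 1632 bp in WT libraries.

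The remaining regions called in 1 genotype alone were short and weak. The second KO region, region 11 at chr14:53401620-53402946, scored 78.2 and 163.03 in the KO lists. It lay 158720 bp from the acetylated region before it and 580371 bp from the one after it. In the WT lists no H3K27ac peak lay in this part for 794939 bp (WT replicate 1) and 795004 bp (WT replicate 2). Many Trav segments exist as near-identical copies, and how reads that match several copies were handled is not given in the sources used here. Calls at such copies are uncertain, and whether this wide part holds them was not tested.

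The 3 WT regions were regions 4, 5 and 16. Region 4 at chr14:53046710-53047718 scored 84.08 and 68.9 in the WT lists and overlapped an Smc1a site called in both replicates, at chr14:53047156-53047765. Region 5 at chr14:53047941-53048877 scored 66.62 and 107.11 and lay 222 bp after it. Region 16 at chr14:54180401-54180830 scored 67.34 and 63.76 and lay 69 bp after region 15, which all libraries shared. All 6 scores lay between 63.76 and 107.11, and none of the 3 regions was longer than 1009 bp.

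The position of the KO stretch can be set beside V-J recombination only in part. The stretch lies toward the end of the locus that holds the J-alpha segments, the part of the locus that V-alpha joins shorten from the V side. In bulk cells, fewer copies of a segment, less acetylation per copy and a call missed by the peak caller cannot be told apart from peak calls. The lists hold no reads, junctions or copy numbers, and the input libraries were not analysed here, so the part of rearrangement in the KO calls was not tested. Beside the stretch stand 3 measurements. WT cells gave Smc1a calls inside it, including the site of highest score in replicate 1. H3K27ac was called in all 4 libraries in region 43 directly before it and again in region 47, while regions 45 and 46 between the stretch and region 47 were called in KO replicate 1 alone. The KO call in replicate 1 was at the low end of its score list, whereas that in KO replicate 2 was 5 peaks with scores from 656.98 to 3100.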

How the data were processed

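Per the submitters' processing notes, Bowtie 0.12.8 was used with the mouse build mm9. The deposited lists give an interval and a score per peak, carry MACS names and were called per library, per the file contents. The score is the authors' own value. How the caller was run, and with which input, is not given in the sources used here for any library. The files hold no read counts, so the depth is unknown and a missing peak is a missing call.

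Overlaps were computed in Python 3.11.15 (numpy 2.4.6, pandas 2.3.3) with functions tested on simulated data. Coordinates count from 1. Overlapping or touching peaks were merged into regions, and a library held a region with at least 1 bp of overlap. Covered length was counted inside the window. Regions and sites described in full were the stretch, its neighbours and their Smc1a sites, then the longest regions and the Smc1a sites of highest score, and all regions called in 1 genotype alone; other regions were named after their values were seen. Differences between KO and WT libraries were tested by exact permutation over libraries (two-sided). The window, members and measures were chosen with earlier results of these data known. No mm9 annotation or genome was used, so lists of recombination genes, marker genes and motifs at Smc1a sites were not analysed. Alternatives were a score threshold, scaling to list totals, equal list lengths, merging within 1000 bp, an overlap of 50%, each library left out and the replicate number as a block.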

Additional observations from a re-analysis of the deposited data

How the results depend on the processing

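Of 50 alternatives over 7 results, 35 gave the same direction, a count within 1.5 times the one reported or, over the whole window, a length within 1 SD of it. With the upper 75% of each list, the KO minus WT difference was 2 peaks outside the stretch (against -2.5) and 42933 bp over the whole window (against 78954). With equal list lengths the difference over the window was 39860 bp, since both settings drop the low-scoring peak of KO replicate 1. The same threshold left 0 regions called in KO alone and 0 in WT alone, and merging within 1000 bp left 1 and 1, the stretch then being part of a 98040 bp region called in all 4 libraries. Leaving out 1 library at a time gave -820 to 4858 bp and -6 to 1 peaks outside the stretch, 74836 to 83072 bp over the window, 2 to 10 regions in KO alone, 3 to 8 in WT alone, and 29 or 42 Smc1a sites with 1 replicate (against 19 in both). The cause of the sign changes was not tested. With the replicate number as a block the differences are 2019 bp and -2.5 peaks by arithmetic, and only the p-values could change (exact sign-flip permutation p = 0.5 and 1). The block settings, including that of the whole window, are counted among the 35 although their differences could not move. Deviations of same-numbered libraries correlated at -0.0155 over 36 regions of the locus and 0.0307 over 19275 regions of the series. With 2 libraries per group, these values cannot show whether same-numbered KO and WT libraries were paired, and the labels do not say. Motifs at Smc1a sites were not run.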
